A study of Mus musculus with 36 samples.

Results

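The genes described here are 10 genes of WNT/β-catenin signalling in the fetal gonad: Wnt4, Rspo1, Ctnnb1, Lef1, Lgr5, Axin2, Znrf3, Rnf43, Nkd1 and Sp5. They were picked by symbol for their known place in the pathway, with no threshold on their counts but with earlier results of these data known. Each has 1 row among the 21699 genes of each count table, and all 10 were among the genes tested, which were 14217 in the E11.5 libraries and 14348 in those of E12.5.

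RNA was taken from mouse embryos of 4 genotypes at the stages E11.5 and E12.5 (days of embryonic development). KO embryos (labelled MiRC1 Mutant) were homozygous for a deletion of the miR-17-92 microRNA cluster. The deletion was made from a floxed allele, on a mixed genetic background, with the transgene Tg(CAG-cre)1Nagy. Its CAG promoter is active in nearly every tissue, so the cluster was lost from the whole embryo and not from the gonad alone. Control embryos are labelled WT, and the alleles of the cross that they carried are not given in the sources used here. There were 3 libraries in each of the 8 groups (XX and XY controls and XX and XY KO embryos of each stage), each made from 2 pairs of gonads. At E11.5 the RNA was of gonad and mesonephros together, the mesonephros being the embryonic kidney on which the gonad grows, and at E12.5 of gonads freed from it. The stages were also prepared with different stranded kits, so levels are compared only within a stage.

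WNT ligands bind Frizzled and LRP receptors at the cell surface and stop the breakdown of β-catenin, which then enters the nucleus and, with factors of the TCF/LEF family, switches on target genes. R-spondins strengthen the signal: they bind LGR receptors and draw away ZNRF3 and RNF43, membrane ubiquitin ligases that would otherwise remove Frizzled. Many targets of the pathway restrain it in turn, so transcripts such as Axin2 and Nkd1 are widely used as readouts of its activity. In the mouse, Wnt4 and Rspo1 are needed for ovarian development, while the testis keeps this pathway low, and excess β-catenin in XY gonads disturbs testis formation.

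The deletion removes 6 microRNAs, which pair with messenger RNAs mainly through the seed, bases 2 to 8. Their mature sequences, from RefSeq with GRCm38.p6, are shown because they are the lesion itself and the seeds (in capitals) are what was searched for in the 10 genes.
mmu-miR-17-5p: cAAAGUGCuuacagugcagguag
mmu-miR-20a-5p: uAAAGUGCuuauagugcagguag
mmu-miR-18a-5p: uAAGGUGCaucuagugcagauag
mmu-miR-19a-3p: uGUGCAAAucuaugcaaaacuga
mmu-miR-19b-3p: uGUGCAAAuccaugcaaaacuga
mmu-miR-92a-3p: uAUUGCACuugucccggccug
miR-17 and miR-20a share a seed, as do miR-19a and miR-19b, so the 6 fall into 4 seed families.

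Perfect 7-base matches to these seeds were searched for in the 3′ UTRs of the 10 genes (1 GRCm38 transcript each), and 2 genes had one. Nkd1 had 1 match to the seed of miR-17 and miR-20a, and Sp5 had 1 match to that of miR-18a. The other 8 genes (Wnt4, Rspo1, Ctnnb1, Lef1, Lgr5, Axin2, Znrf3 and Rnf43) had no match for any of the 4 families. Both matches are printed with the matching bases in capitals, since these are the only 2 genes of the 10 with such a 7-base match in the transcript searched. Matches to fewer bases of the seed, and other transcripts of the genes, were not searched.
Nkd1, chr8:88593755-88593780, forward strand: ttggtaagcatGCACTTTgcagatag
Sp5, chr2:70477208-70477233, forward strand: catctttcccaGCACCTTtgctggca
Of 2104 genes with 3′ UTRs as long as that of Nkd1 (2385 to 3439 bases), 24.1% had at least 1 match to the miR-17 seed and 56.0% a match to any of the 4. Among the 2104 genes in the length class of Sp5 (454 to 686 bases), 3.61% had a match to the miR-18a seed and 15.2% a match to any of the 4. For the 8 genes without a match, the share of genes in the same length class with any match was 15.2% for Rspo1, 28.6% for Ctnnb1 and Lef1, 35.3% for Lgr5, Axin2 and Rnf43 and 56.0% for Wnt4 and Znrf3. A match of 7 bases is a description of the sequence and not a shown site.

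RefSeq promoters (GRCm38.p6, 250 bases before to 50 after a transcript start) were found for 8 of the 10 genes, Lgr5 and Znrf3 being missing from the table. They were searched on both strands for CTTTGAT and CTTTGAA, forms of the TCF/LEF motif. Sp5, a zinc finger transcription factor and direct WNT target, was the gene among the 8 with a match, a CTTTGAT whose first base lay 104 bases before the start.
Sp5, chr2:70474808-70474836, forward strand, motif in capitals: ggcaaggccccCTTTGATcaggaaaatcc
CTTTGAT occurred in 3.73% of 32851 promoters, CTTTGAA in 5.14% and either in 8.65%. Counted by gene, as for the 8, the shares of 27025 genes were 4.29%, 5.93% and 9.88%.

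Library totals were between 11877379 and 44155275 counts. Xist and the Y-linked Ddx3y went with the labelled sex in all 24 libraries: Xist had 1340.4 to 2988 CPM in XX libraries and 0.434 to 4.72 CPM in XY libraries. Mir17hg, the host transcript of the cluster, had 66.7 to 154 CPM in the 12 KO libraries and 13.4 to 44.6 CPM in the 12 control libraries. These counts take in parts of the transcript outside the cluster and so do not themselves show the deletion. Markers of gonadal somatic cells (Nr5a1, Wt1, Gata4 and 5 others) summed to 1280.0 to 1726 CPM at E11.5 and 1659 to 2258 CPM at E12.5. CPM are counts scaled to the library total after TMM normalization. Differences were called at an FDR (Benjamini-Hochberg adjusted p over all tested genes, edgeR quasi-likelihood test) under 0.05, and log2 fold changes are given ± SE. In such bulk libraries, fewer cells that express a gene and less RNA per cell cannot be told apart.

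At E12.5, Wnt4, Rspo1, Lef1, Axin2, Rnf43, Nkd1 and Sp5 were higher in XX than in XY control gonads, 7 of the 10 genes. Against the same XY controls, Wnt4, Rspo1, Lef1, Axin2, Rnf43, Nkd1 and Sp5 were higher in XY KO gonads, while Ctnnb1, Lgr5 and Znrf3 passed in neither comparison. Over all tested genes, 23.8% were called between the controls and 20.6% between XY KO and XY control. The median log2 fold change of the 10 genes was 1.45 between the controls and 1.41 between XY KO and XY control, where the median of all tested genes was 0.01 and -0.01. These comparisons share the XY control libraries.

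**Figure D1:**
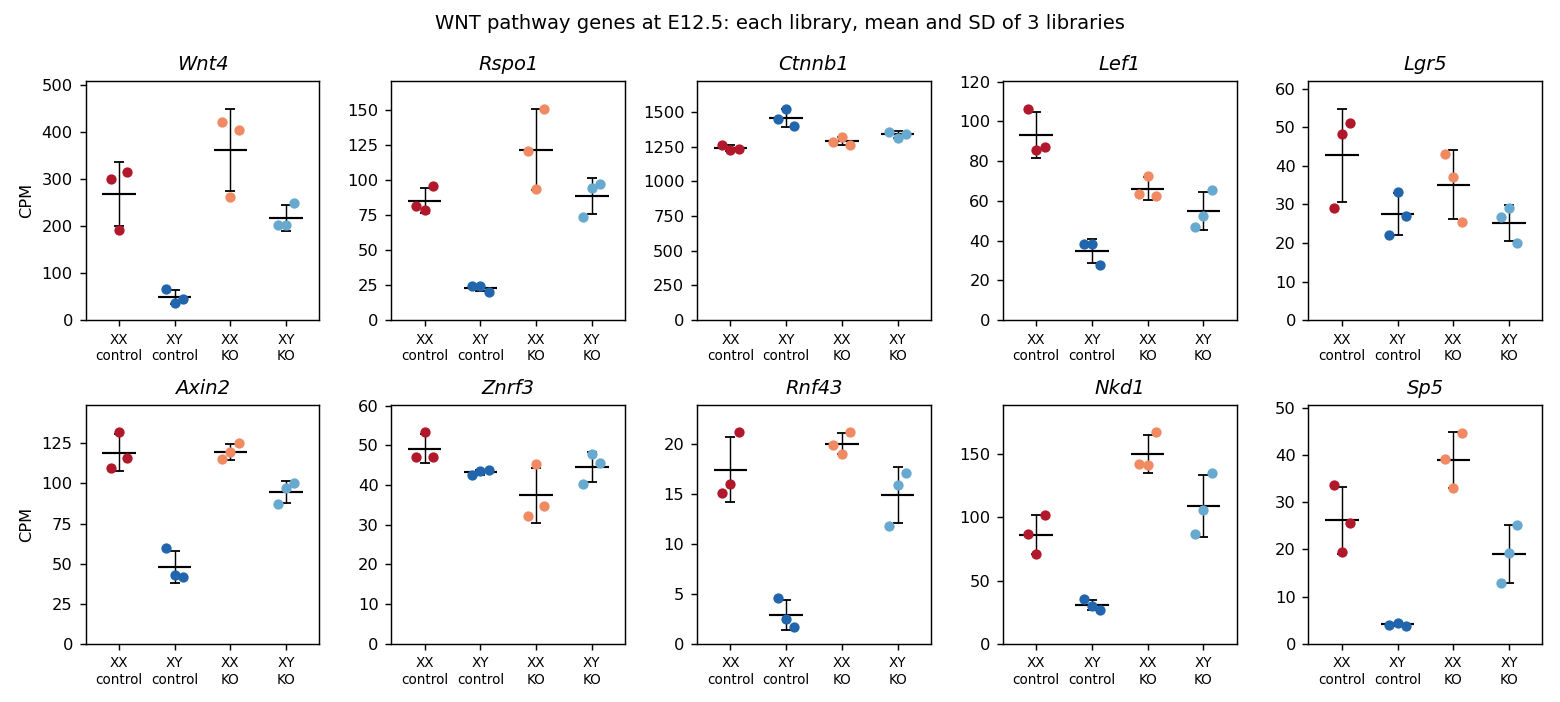
CPM of the 10 genes at E12.5 (vertical axes from 0, a scale for each gene), with a point for each library and a bar for the mean ± SD of 3 libraries, by genotype. For Wnt4, Rspo1, Lef1, Axin2, Rnf43, Nkd1 and Sp5 the 3 XY control libraries lie below all 9 other libraries, while for Ctnnb1, Lgr5 and Znrf3 they do not. The share of all tested genes with this order was not computed.

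Wnt4 (chr4:137277489-137299726), which encodes the WNT ligand of the fetal ovary, had 301, 191 and 315 CPM in the 3 XX control libraries and 65.96, 35.3 and 45.3 CPM in the 3 XY controls. XY KO libraries had 202, 201 and 249.97 CPM, and XX KO libraries 423, 263 and 404 CPM. The 3 XY controls were thus the lowest libraries, with no overlap with any other group, while XX control, XX KO and XY KO libraries overlapped or lay next to each other. XX controls exceeded XY controls by 2.46 ± 0.26 on the log2 scale (5.499-fold, FDR 5.8e-06), and XY KO exceeded XY control by 2.16 ± 0.25 (4.45-fold, FDR 2.35e-05). XY KO against XX control was not called, with a log2 difference of -0.30 ± 0.24 (95% interval -0.82 to 0.21, FDR 0.527).

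Rspo1 (chr4:124986430-125009099), the R-spondin that acts with Wnt4 in the ovary, had 81.3, 78.7 and 95.8 CPM in XX controls, 24.2, 24.2 and 19.98 CPM in XY controls, 120.5, 93.1 and 151 CPM in XX KO and 73.7, 94.2 and 97.2 CPM in XY KO. Again the XY controls formed the low group and the range of XY KO covered that of XX controls. The log2 difference was 1.895 ± 0.18 between the controls (FDR 1.88e-06) and 1.95 ± 0.18 between XY KO and XY control (FDR 2.01e-06). Against XX controls, XY KO differed by 0.05 ± 0.17 (95% interval -0.31 to 0.41). XX KO exceeded XX control by 0.51 ± 0.17, which did not pass (FDR 0.0894), but did without XX KO replicate 2 (FDR 0.0194).

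Ctnnb1 (chr9:120929216-120960507) encodes β-catenin itself, whose activity is set mainly by the stability of the protein. Its transcript had 1264, 1226 and 1235 CPM in XX controls, 1453, 1526 and 1397 CPM in XY controls, 1287, 1322 and 1261 CPM in XX KO and 1360.2, 1314 and 1346 CPM in XY KO. XY controls were the highest group by a small margin, with a log2 difference of -0.23 ± 0.10 between the controls that missed the threshold (95% interval -0.44 to -0.02, FDR 0.111, 0.00824 with DESeq2). Between XY KO and XY control the difference was -0.12 ± 0.10 (95% interval -0.33 to 0.09). An exon of Ulk4 on the opposite strand shares 759 bases with Ctnnb1, and the strand setting of the counting is not given in the sources used here, so reads of Ulk4 could be among these counts.

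Lef1 (chr3:131110471-131224356), a nuclear partner of β-catenin and itself a target of the pathway, was the gene called between XY KO and XX control. It had 106, 85.8 and 87.1 CPM in XX controls, 38.1, 38.03 and 27.8 CPM in XY controls, 63.5, 72.5 and 62.2 CPM in XX KO and 46.8, 52.5 and 65.2 CPM in XY KO. The KO libraries of both sexes lay between the controls and overlapped neither. The log2 difference was 1.42 ± 0.16 between the controls (FDR 1.19e-05) and 0.66 ± 0.16 between XY KO and XY control (FDR 0.00779). XY KO was lower than XX control (log2 fold change -0.76 ± 0.16, FDR 0.0148), and no other gene of the 10 was called in that comparison, where 5.03% of all tested genes were called. That call was lost without XX control replicate 1 (FDR 0.065), XY KO replicate 1 (0.0586) or XY KO replicate 2 (0.0682). Lef1 shares 1208 exon bases with the antisense gene Gm43352.

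Lgr5 (chr10:115450311-115587780), an R-spondin receptor and WNT target, had 28.98, 48.2 and 51.3 CPM in XX controls, 22.2, 33.1 and 27.1 CPM in XY controls, 43.02, 37.1 and 25.4 CPM in XX KO and 26.7, 28.96 and 20.1 CPM in XY KO. The ranges of the groups overlapped or touched, and XX control replicate 1 was level with XY KO replicate 2. In the edgeR fit of all 12 libraries no comparison passed for Lgr5 at E12.5: the log2 difference between the controls was 0.64 ± 0.24 (95% interval 0.12 to 1.15, FDR 0.0705). Without XX control replicate 1 that difference passed (FDR 0.0161), as it did without XX KO replicate 3 (FDR 0.0478), with library size scaling only (0.0448), with only the 6 control libraries fitted (0.0328) and with DESeq2 (0.0418). Lgr5 was lower in XY KO than XX control with DESeq2 (FDR 0.0319) and without XX control replicate 1 (0.0406).

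The 5 remaining genes are feedback targets, which WNT signalling switches on and whose products hold it back. Axin2 (chr11:108920349-108950783), a scaffold of the complex that degrades β-catenin, had 109.6, 132 and 116 CPM in XX controls and 59.5, 42.8 and 41.4 CPM in XY controls, against 115, 119 and 125 CPM in XX KO and 86.9, 97.5 and 100.1 CPM in XY KO. XY KO lay above every XY control and below every XX control. The log2 difference between XY KO and XY control was 0.98 ± 0.14 (FDR 0.000144) and that between the controls 1.31 ± 0.14 (FDR 7.98e-06), while XY KO against XX control gave -0.33 ± 0.14 (95% interval -0.63 to -0.03, FDR 0.197). Axin2 shares 209 exon bases with the antisense gene Gm11670.

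Rnf43 (chr11:87662722-87735539) and Znrf3 (chr11:5276324-5444847) encode the paired ubiquitin ligases that clear Frizzled from the membrane, and they behaved differently. Rnf43 had 15.1, 15.996 and 21.1 CPM in XX controls, 4.53, 2.47 and 1.65 CPM in XY controls, 19.9, 18.97 and 21.1 CPM in XX KO and 11.7, 15.9 and 17.04 CPM in XY KO. Its XY controls lay below every other library, with log2 differences of 2.54 ± 0.28 between the controls (FDR 9.51e-06) and 2.32 ± 0.28 between XY KO and XY control (FDR 2.78e-05). Znrf3 had 46.97, 53.3 and 47.1 CPM in XX controls, 42.5, 43.5 and 43.7 CPM in XY controls, 32.1, 45.2 and 34.8 CPM in XX KO and 40.3, 47.9 and 45.5 CPM in XY KO. The lowest Znrf3 libraries were 2 of the XX KO, and the difference between the controls was 0.18 ± 0.14 (95% interval -0.11 to 0.48), with 0.04 ± 0.14 between XY KO and XY control (95% interval -0.25 to 0.34). XX KO against XX control gave -0.39 ± 0.14 (FDR 0.105), which passed without XX KO replicate 2 (FDR 0.0188).

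Nkd1 (chr8:88521354-88594884), an inhibitor that binds Dishevelled, had 86.6, 70.7 and 102 CPM in XX controls, 35.1, 29.96 and 27.02 CPM in XY controls, 142, 141 and 168 CPM in XX KO and 86.8, 106 and 135 CPM in XY KO. The XX KO libraries were the highest of all 12 and lay clear of the XX controls. Nkd1 was the only gene of the 10 called between XX KO and XX control in the edgeR fit of all 12 libraries, by 0.80 ± 0.17 on the log2 scale (1.74-fold, FDR 0.0209), where 5.26% of tested genes were called. The call was lost without XX control replicate 1 (FDR 0.077), XX control replicate 2 (0.113) or XX KO replicate 3 (0.0908). In XY gonads the same gene gave 1.83 ± 0.18 (FDR 3.91e-06), and between the controls 1.49 ± 0.18 (FDR 2.09e-05). Any part of the miR-17 seed match printed above in these values was not tested.

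Sp5 (chr2:70474923-70477729) had 33.6, 19.4 and 25.5 CPM in XX controls, 4.01, 4.47 and 3.82 CPM in XY controls, 39.2, 32.97 and 44.7 CPM in XX KO and 12.9, 19.2 and 25.1 CPM in XY KO. The XY controls lay within less than 1 CPM of each other and far below the rest. Sp5 had the largest log2 difference of the 10 genes between the controls, 2.67 ± 0.26 (6.35-fold, FDR 2.71e-06), and 2.22 ± 0.26 between XY KO and XY control (FDR 1.95e-05).

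On the log2 scale, with XY control set to 0% and XX control to 100%, the mean of XY KO stood at 46.3% for Lef1, 75.3% for Axin2, 81.9% for Sp5, 88.8% for Wnt4, 91.5% for Rnf43, 102% for Rspo1 and 122% for Nkd1. Both ligand genes were thus close to the XX level in XY KO gonads, Lef1 was midway and Nkd1 was past it. XX KO stood at 65.8% for Lef1, between 101% and 126% for Axin2, Rnf43, Wnt4, Sp5 and Rspo1, and at 155% for Nkd1.

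None of the 10 genes was called between XX KO and XY KO at E12.5 with edgeR, where 0.153% of all tested genes were called. At an unadjusted p under 0.05 there were 5 (Wnt4, Rspo1, Axin2, Nkd1 and Sp5), against 19.2% of all tested genes, and DESeq2 called Sp5. All 5 were higher in XX KO, from 0.34 for Axin2 to 1.02 for Sp5 on the log2 scale (FDR 0.219 for Sp5). Without XX KO replicate 2, 4 genes passed: Wnt4 (FDR 0.0296), Rspo1 (0.0265), Sp5 (0.019) and Znrf3 (0.0467), the last lower in XX KO.

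The effect of the deletion differed between the sexes for 7 of the 10 genes at E12.5, as tested by the interaction of sex and genotype, which called 12.9% of all tested genes. Wnt4 moved by 2.16 ± 0.25 in XY and by 0.43 ± 0.24 in XX gonads, a difference of 1.72 ± 0.34 (FDR 0.0036). For Lef1 the effects had opposite signs, 0.66 ± 0.16 in XY and -0.49 ± 0.16 in XX gonads, the latter not passing with edgeR (FDR 0.079) but passing with DESeq2 (0.0287) and without XX KO replicate 2 (0.048), and the difference was 1.15 ± 0.22 (FDR 0.0027). Ctnnb1, Lgr5 and Znrf3 were not called in this test, though Znrf3 was without XX KO replicate 2 (FDR 0.0266).

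**Figure D2:**
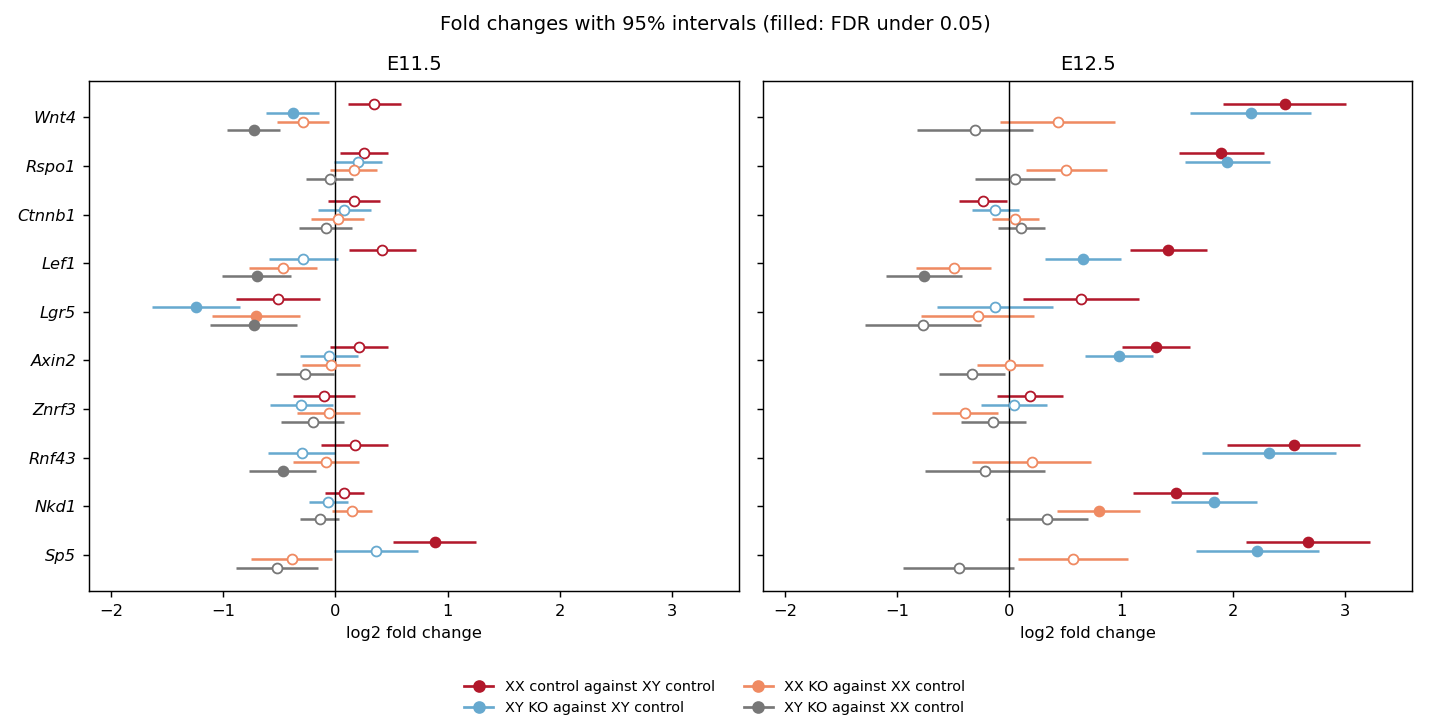
Log2 fold changes of the 10 genes (horizontal axes) in 4 comparisons at E11.5 and E12.5, with 95% intervals from the edgeR fit of 12 libraries per stage; filled points have an FDR under 0.05. At E12.5 the red and blue points (XX control and XY KO, each against XY control) are filled and to the right of 0 for 7 genes. Those of Znrf3 are also to the right of 0 but open. At E11.5 the interval reaching furthest from 0 is that of Lgr5, at -1.63.

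The other genes of the pathway moved in both directions at E12.5. Of 96 listed genes (ligands, receptors, inhibitors, cytoplasmic and nuclear components and further targets), 95 were in the table and 85 were tested. Between XX and XY controls 13 were higher and 16 lower in XX, where 23.8% of all tested genes were called. Between XY KO and XY control 17 were higher and 11 lower in XY KO, where 20.6% of all tested genes were called. The median log2 fold change of the listed genes was 0.03 there (-0.01 for all tested genes). Between XX KO and XX control 6 were higher and 3 lower, where 5.26% of all tested genes were called. But none of the listed genes was called without XX control replicate 1, XX control replicate 2 or XX KO replicate 3, and 1 when only the 6 libraries compared were fitted. Between XX KO and XY KO none was called with edgeR (1 with DESeq2, and 13 with edgeR without XX KO replicate 2).

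Of 13 tested genes for ligands and their secretion, Wnt9a, Wnt10a, Wnt2b and Porcn were higher and Wnt3 and Wnt5a lower in XX than XY controls. Porcn, the enzyme that attaches the lipid needed for WNT secretion, had 43.2, 57.02 and 39.7 CPM in XX controls, 5.44, 5.12 and 5.47 CPM in XY controls, 28.3, 30.6 and 18.5 CPM in XX KO and 12.04, 14.4 and 14.6 CPM in XY KO. The ranges of the 4 groups did not overlap, in the order XX control, XX KO, XY KO and XY control. The log2 difference was -0.85 ± 0.19 between XX KO and XX control (FDR 0.0219) and 1.36 ± 0.20 between XY KO and XY control (FDR 0.000221). Wnt9a averaged 38.99 ± 6.51 CPM (SD, n = 3) in XX controls, 5.21 ± 0.698 in XY controls, 29.7 ± 4.26 in XX KO and 23.3 ± 5.03 in XY KO. Wnt5a, a ligand mostly of the branch that does not use β-catenin, went the other way, with 142 ± 14.8 CPM in XX controls, 436 ± 71.8 in XY controls, 237 ± 53.96 in XX KO and 293 ± 13.4 in XY KO, and was called in all 4 comparisons with a control. Wnt3 averaged 11.8 ± 2.24 CPM in XY controls, against 1.56 ± 0.472 CPM in XY KO gonads (log2 difference -2.88 ± 0.36, FDR 4.24e-05).

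Most of the called secreted and membrane inhibitors were highest in the XY controls. Of 14 tested, 7 were lower in XX than XY controls (Dkk1, Dkk3, Sfrp1, Sfrp4, Sost, Sostdc1 and Wif1) and 2 were higher (Notum and Apcdd1), and in XY KO against XY control 5 were lower (Dkk1, Dkk3, Sfrp4, Sostdc1 and Wif1) and 2 higher (Notum and Apcdd1). Sostdc1, a secreted antagonist of WNT and BMP signalling, had 26.03, 13.8 and 29.4 CPM in XY controls, against 0.643, 1.21 and 2.102 CPM in XY KO gonads, with a log2 difference of -4.04 ± 0.39 (FDR 3.57e-06). Sfrp4 had 13.6, 7.46 and 7.47 CPM in XY controls, against 0.585, 0.405 and 0.519 CPM in XY KO gonads (FDR 5.25e-07). Dkk1 fell from 15.4 ± 0.638 CPM in XY controls to 4.71 ± 1.96 CPM in XY KO (log2 difference -1.699 ± 0.35, FDR 0.00276). Sfrp1 and Sost were lower in XX than XY controls but not called between XY KO and XY control. Sfrp1 had 197, 166 and 202 CPM in XX controls but 424, 300.2 and 424 CPM in XY controls, 240.2, 354 and 302 CPM in XX KO and 347, 363 and 369 CPM in XY KO. Its XY KO libraries were within the range of the XY controls and it was higher than XX controls by 0.93 ± 0.16 in XY KO (FDR 0.00661) and 0.66 ± 0.16 in XX KO (FDR 0.0322). Notum, an enzyme that removes the lipid of WNT proteins and is itself a WNT target, rose from 3.38 ± 1.19 CPM in XY controls to 17.7 ± 8.93 CPM in XY KO (log2 difference 2.38 ± 0.37, FDR 0.000284).

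Among 19 tested R-spondins and receptors, Lgr6 and Rspo2 were higher and Fzd1, Fzd8, Fzd9 and Lrp5 lower in XX than XY controls, and in XY KO against XY control Lgr4, Lgr6, Ror1 and Rspo2 were higher and Fzd9 lower. Fzd9 had 16.7, 18.9 and 10.5 CPM in XY controls, against 0.76, 1.48 and 1.28 CPM in XY KO gonads, with a log2 difference of -3.71 ± 0.31 (FDR 1.02e-06). Lgr6, an R-spondin receptor related to Lgr5, averaged 2.703 ± 0.327 CPM in XX controls, 0.753 ± 0.125 in XY controls, 3.66 ± 0.7 in XX KO and 3.28 ± 0.793 in XY KO. Fzd2 and Fzd5 were the genes of this list called between XX KO and XX control, by 0.71 ± 0.17 (FDR 0.033) and -0.67 ± 0.16 (FDR 0.0324). Of 15 cytoplasmic components only Nkd2, a relative of Nkd1, was called between the controls, and it went against Nkd1: its log2 fold change of XX against XY was -0.71 ± 0.20 (FDR 0.0167). Of 13 nuclear factors only Tle2, a co-repressor, was called there (0.90 ± 0.16, FDR 0.000677), and Tle2 and Tle4 were called in opposite directions between XY KO and XY control.

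Of 11 further target genes, 4 were higher (Tnfrsf19, Cd44, Cdx1 and Cdx2) and 2 lower (Dact1 and Prickle1) in XX than XY controls. In XY KO against XY control 5 were higher (Tnfrsf19, Cd44, Cdx1, Cdx2 and Ccnd1) and 2 lower (Dact1 and Prickle1). Tnfrsf19, a receptor gene known to respond to WNT, had 344, 315 and 324 CPM in XX controls, 27.8, 37.5 and 30.3 CPM in XY controls, 336, 288 and 278 CPM in XX KO and 292, 265 and 259 CPM in XY KO. The XY controls were far below all others, and XY KO exceeded them by 3.09 ± 0.14 on the log2 scale (FDR 3.55e-09). Cd44, which encodes an adhesion molecule, gave 2.28 ± 0.30 in the same comparison (FDR 7.33e-05). Cdx2 averaged 11.47 ± 4.17 CPM in XX controls, 6.89 ± 2.06 in XX KO and 5.01 ± 1.11 in XY KO, and its XY control libraries held 2, 3 and 0 counts.

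**Figure D3:**
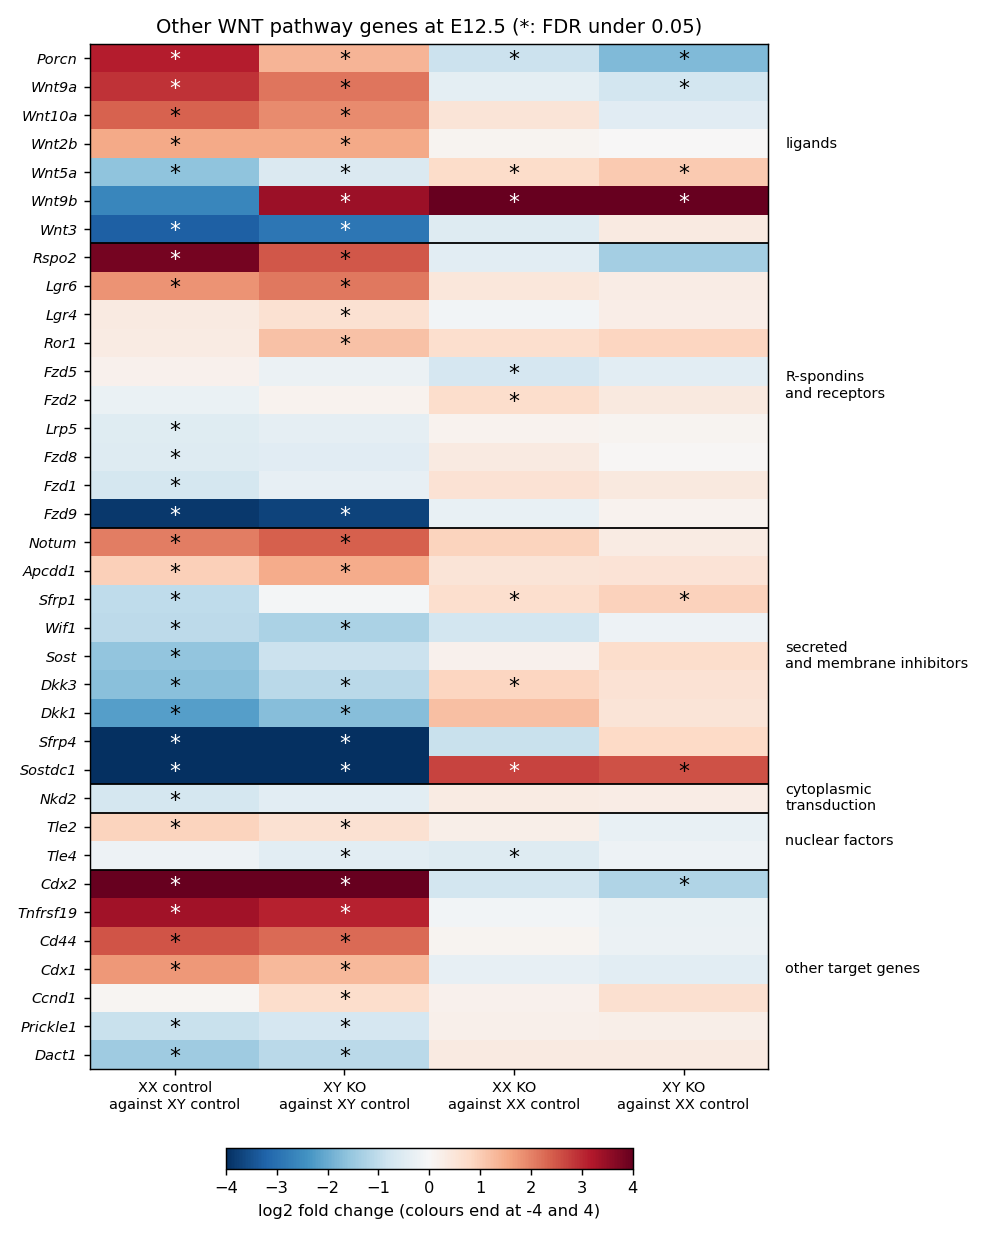
Log2 fold changes (colour, ending at -4 and 4) at E12.5 of the 36 other pathway genes called in at least 1 of the 4 comparisons shown, grouped by role, with a star at an FDR under 0.05. The first 2 columns hold both red and blue rows in most roles, and Sostdc1, Wnt5a and Sfrp1 are the rows whose last 2 columns are starred and red while the first is starred and blue. Fitted values of genes near 0 counts in a group, such as Wnt9b, Rspo2 and Cdx2, depend on the prior count.

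Of a list of 6 ovarian genes, 5 (Fst, Bmp2, Irx3, Irx5 and Foxl2) were higher in XX than XY controls and in XY KO than XY control at E12.5. Over all tested genes, 23.8% and 20.6% were called in these comparisons, in both directions. All 6 also stand in the list of pre-granulosa cell markers. Fst, an activin antagonist, had 314, 234 and 273 CPM in XX controls, 1.35, 1.17 and 1.998 CPM in XY controls, 219.7, 156 and 152 CPM in XX KO and 189.7, 164 and 118 CPM in XY KO. Between XY KO and XX control, where neither Wnt4 nor Rspo1 was called, Fst was lower in XY KO (-0.80 ± 0.19, FDR 0.0296), as was Irx3, a homeobox gene of granulosa cells (-1.56 ± 0.26, FDR 0.00562). Irx3 had 81.1, 60.1 and 78.4 CPM in XX controls, 85.1, 55.3 and 65.4 CPM in XX KO and 16.7, 28.3 and 29.1 CPM in XY KO.

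Markers of several cell types moved with these results at E12.5. The summed level of 10 Sertoli cell markers was 1628 to 2242 CPM in XY controls and 51.6 to 70.9 CPM in XY KO. It was 27.2 to 35.9 CPM in XX controls and 31.8 to 33.95 CPM in XX KO. All 10 were lower in XY KO than XY control, where 20.6% of all tested genes were called. The sum of 6 fetal Leydig cell markers was 823 to 1767 CPM in XY controls and 31.3 to 40.7 CPM in XY KO. For 8 pre-granulosa markers the sum was 1458 to 1842 CPM in XX controls, 298 to 417 CPM in XY controls, 796 to 1294 CPM in XX KO and 945 to 1236 CPM in XY KO, and the XX controls lay above both KO groups, as they did for Lef1. The 9 germ cell markers summed to 861 to 1591 CPM in XX controls, 887 to 1182 in XY controls, 355 to 820.5 in XX KO and 661 to 819.7 in XY KO. The part of these cell types in the results was not tested.

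The mesonephros, which expresses Wnt4 and other WNT genes of kidney tubules, was to have been removed at E12.5. The 10 mesonephric markers summed to 78.8, 71.5 and 75.1 CPM in XX controls, 37.05, 30.96 and 34.1 CPM in XY controls, 101, 148 and 169 CPM in XX KO and 60.8, 89.4 and 128 CPM in XY KO. Among them Cdh16, Pax8 and Wnt9b were higher in XX KO than XX control, where 5.26% of all tested genes were called. Between XY KO and XY control, where 20.6% were called, Wnt9b, Pax2, Pax8, Gata3, Cdh16 and Calb1 were higher and Lhx1 was lower. Cdh16, a cadherin of kidney tubules, had 14.8, 59.7 and 76.3 CPM in XX KO and 4.501, 24.3 and 49.1 CPM in XY KO but 0.464, 0.656 and 1.31 CPM in XX controls and 0.435, 0.13 and 0 CPM in XY controls. XX KO replicate 3 and XY KO replicate 3 had the most Cdh16 of their groups. Both were also the highest of their groups for Rspo1, Axin2, Rnf43, Nkd1 and Sp5, and XY KO replicate 3 for Wnt4 and Lef1 too. But both were the lowest of their groups for Lgr5 (25.4 CPM in XX KO and 20.1 CPM in XY KO). XX KO replicate 3 was also the lowest of its group for Lef1 and Ctnnb1. Wnt4 had 202, 201 and 249.97 CPM in XY KO replicates 1, 2 and 3, and 423, 263 and 404 CPM in XX KO replicates 1, 2 and 3. The part of mesonephric cells in the values of Wnt4, Nkd1 and the other genes was not tested.

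**Figure D4:**
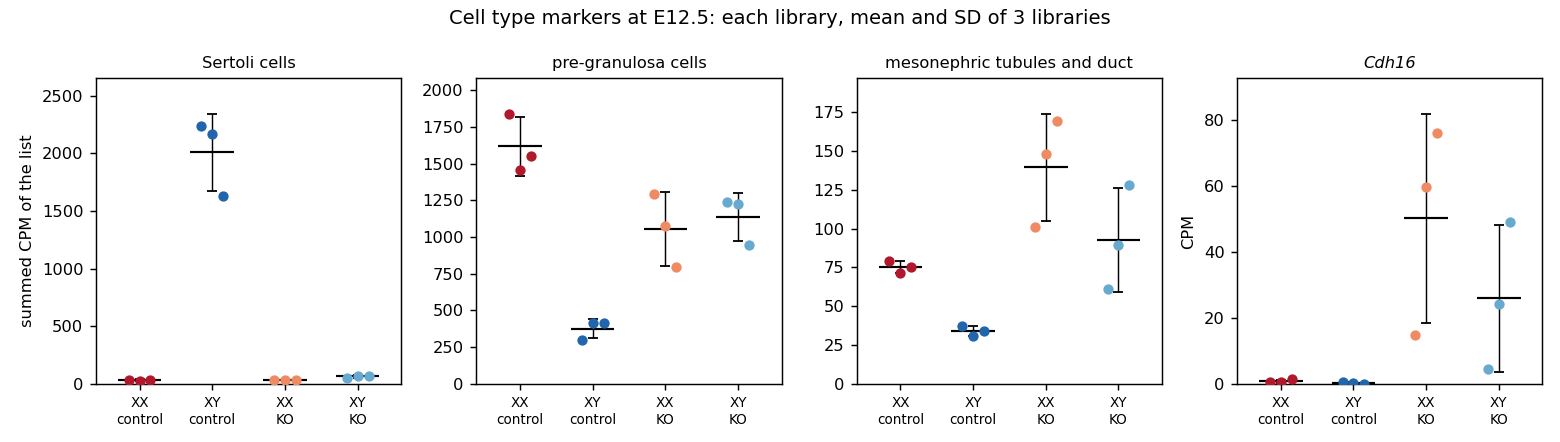
Summed CPM of 10 Sertoli cell, 8 pre-granulosa cell and 10 mesonephric markers, and CPM of the tubule gene Cdh16, in each E12.5 library (points) with the mean ± SD of 3 libraries. Sertoli markers are highest in the XY controls, and Cdh16 is at 4.50 to 76.3 CPM in the 6 KO libraries and at 0 to 1.31 CPM in the 6 control libraries.

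At E11.5, before the gonads of the sexes differ much, few of the 10 genes were called. Between XX and XY controls only Sp5 was called, where 0.886% of tested genes were, and the median log2 fold change of the 10 genes was 0.19. Sp5 had 16.6, 14.1 and 15.4 CPM in XX controls, 8.96, 8.93 and 7.02 CPM in XY controls, 8.82, 13.9 and 12.45 CPM in XX KO and 10.002, 10.1 and 11.996 CPM in XY KO. XX controls were the highest group and XY controls the lowest, with a log2 difference of 0.88 ± 0.17 (FDR 0.0203), which was lost without any of XX control replicates 1, 2 or 3 or XY control replicate 3 (FDR 0.0537 to 0.141). Wnt4 and Lef1 were higher in XX controls by 0.35 ± 0.11 (FDR 0.144) and 0.42 ± 0.14 (FDR 0.165), and both passed without XY control replicate 2 (FDR 0.00552 and 0.035).

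**Figure D5:**
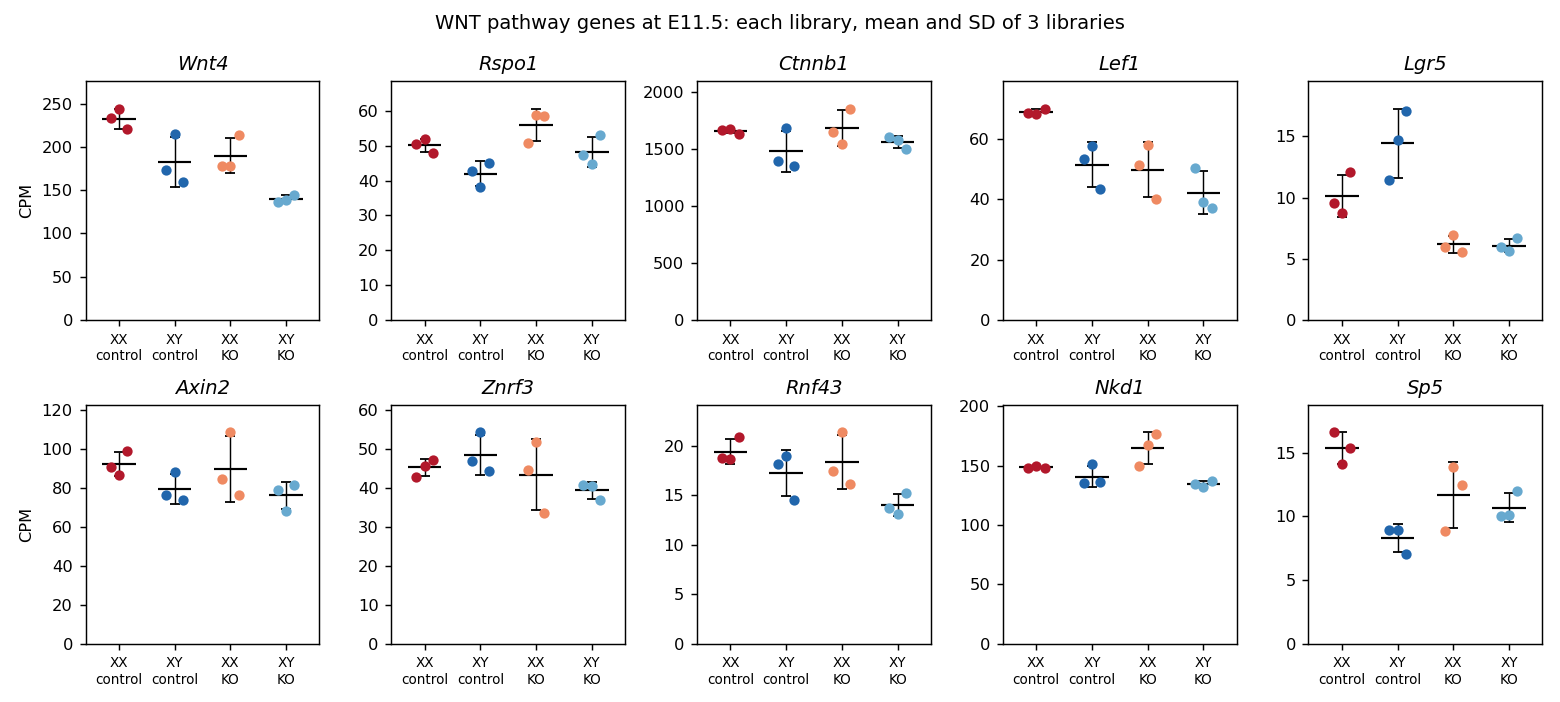
CPM of the 10 genes at E11.5 (vertical axes from 0, a scale for each gene), with a point for each library and a bar for the mean ± SD of 3 libraries, by genotype. In Lgr5 the 6 KO libraries lie between 5.58 and 6.97 CPM, below all 6 control libraries.

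Lgr5 was the gene of the 10 called in mutants of both sexes at E11.5. It had 9.53, 8.77 and 12.1 CPM in XX controls, 11.4, 14.7 and 17.1 CPM in XY controls, 5.97, 6.97 and 5.58 CPM in XX KO and 5.96, 5.64 and 6.66 CPM in XY KO. All 6 KO libraries were below all 6 control libraries. XY KO was lower than XY control (-1.24 ± 0.18 on the log2 scale, FDR 0.000791), a call kept in every alternative tried. XX KO was lower than XX control (-0.71 ± 0.18, FDR 0.046), a call lost without any 1 of the XX control, XX KO or XY KO libraries (FDR 0.0555 to 0.208). The tested genes called were 12.7% between XY KO and XY control and 3.27% between XX KO and XX control. The interaction test did not call a difference between the effects in XY and XX (-0.54 ± 0.26, 95% interval -1.08 to 0.01, FDR 0.398), and called 0.0352% of tested genes and no gene of the 10 (Sp5 alone at an unadjusted p under 0.05, against 12.8% of all tested genes).

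Wnt4 at E11.5 had 233, 244 and 221 CPM in XX controls, 173, 215 and 159 CPM in XY controls, 178, 178 and 213 CPM in XX KO and 137, 139 and 145 CPM in XY KO. The XY KO libraries were the lowest of all 12. XY KO was lower than XY control (-0.38 ± 0.11, FDR 0.0333), a call lost without XX control replicate 1, XY control replicate 1 or 2, or any XY KO library (FDR 0.0517 to 0.105). XX KO against XX control gave -0.29 ± 0.11, which did not pass (FDR 0.184). Rspo1 did not follow Wnt4: it had 50.5, 51.8 and 47.9 CPM in XX controls, 42.8, 38.2 and 45.2 in XY controls, 50.7, 58.8 and 58.7 in XX KO and 47.3, 44.6 and 53.01 in XY KO, and the KO values of log2 fold change were above 0 in both sexes (0.20 ± 0.10 in XY and 0.16 ± 0.10 in XX, neither passing).

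XY KO against XX control called 4 of the 10 genes at E11.5, all lower in XY KO, with 9.09% of tested genes called. These were Wnt4 (-0.73 ± 0.11, FDR 0.001), Lef1 (-0.70 ± 0.14, FDR 0.00731), Lgr5 (-0.73 ± 0.18, FDR 0.0232) and Rnf43 (-0.47 ± 0.14, FDR 0.0476). Lef1 had 68.5, 68.1 and 70.1 CPM in XX controls, 53.4, 57.7 and 43.4 in XY controls, 51.2, 57.98 and 40.03 in XX KO and 50.2, 39.1 and 37.3 in XY KO. Rnf43 had 18.8, 18.6 and 20.9 CPM in XX controls, 18.2, 18.97 and 14.6 in XY controls, 17.5, 21.4 and 16.2 in XX KO and 13.7, 13.1 and 15.2 in XY KO. For both genes the XX controls and the XY KO did not overlap. The Lgr5 call was lost without XX control replicate 1 or 3 or XY KO replicate 1 or 2 (FDR 0.0542 to 0.117) and the Rnf43 call without XX control replicate 1, 2 or 3, XX KO replicate 1, XY control replicate 1 or XY KO replicate 1, 2 or 3 (FDR 0.0505 to 0.174). The Rnf43 call was also lost with library size scaling only, with no filter on low counts and with the edgeR 4 form of the test. Sp5 was called in this comparison with DESeq2 (FDR 0.0358) and with only the libraries compared (0.0174). Between XX KO and XY KO none of the 10 was called, with 0.0844% of tested genes called. At an unadjusted p under 0.05 there were 4 (Wnt4, Rspo1, Rnf43 and Nkd1, all higher in XX KO), against 16.1% of all tested genes, and DESeq2 called Wnt4 and Nkd1.

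Ctnnb1, Axin2, Znrf3 and Nkd1 were called in no comparison in the edgeR fit of all 12 libraries at E11.5. With only the 6 libraries compared, Axin2 was lower in XY KO than XX control (FDR 0.0467). Ctnnb1 ranged from 1353 to 1855 CPM, Axin2 from 68.4 to 109 CPM, Znrf3 from 33.6 to 54.2 CPM and Nkd1 from 132 to 177 CPM over the 12 libraries. For Axin2 the log2 difference between XY KO and XY control was -0.06 ± 0.12 (95% interval -0.32 to 0.20) and for Nkd1 -0.06 ± 0.08 (95% interval -0.24 to 0.11).

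Of the other pathway genes at E11.5, 81 of 96 were tested. Against XY control, 6 were higher and 8 lower in XY KO, where 12.7% of all tested genes were called. Leaving out XY KO replicate 1 made these 14 calls 7, XY KO replicate 2 made them 8, XY control replicate 1 made them 9 and XY control replicate 2 made them 25. The 2 called inhibitors with the largest increases were Sfrp5, with 1.56 ± 0.129 CPM in XY controls, against 4.104 ± 0.629 CPM in XY KO gonads (1.396 ± 0.25, FDR 0.00258), and Frzb, with 17.4 ± 2.64 and 37.4 ± 4.95 CPM (1.103 ± 0.21, FDR 0.00461), both decoy receptors that bind WNT. Sfrp5 was also higher in XX KO than XX control (1.12 ± 0.25, FDR 0.0236). Wnt2b was higher in KO gonads of both sexes (0.59 ± 0.13 in XY, FDR 0.00934, and 0.69 ± 0.13 in XX, FDR 0.0105) and Wnt7a lower in both (-1.73 ± 0.41, FDR 0.0141, and -1.52 ± 0.39, FDR 0.0462). Between XX KO and XX control 4 of the 81 were called with all libraries, where 3.27% of all tested genes were called. None of the 81 was called when XX control replicate 1 was left out, 1 when replicate 2 or 3 of the XX controls or replicate 3 of XX KO was left out, and 2 when it was replicate 2 of XX KO. Wnt6 was lower in XY KO (-0.64 ± 0.15, FDR 0.011). Fzd9 was the only one of the 81 called between the controls (9 were without XY control replicate 2), where 0.886% of all tested genes were called. It had 0.931 ± 0.181 CPM in XX and 5.14 ± 1.83 CPM in XY controls. It was lower in XY KO than XY control (-2.31 ± 0.33, FDR 0.000608), as at E12.5. Foxl2, Fst and Bmp2 of the ovarian list were already higher in XX than XY controls at E11.5, and Fst and Irx3 were lower in XX KO than XX control (-1.29 ± 0.25, FDR 0.016, and -0.86 ± 0.19, FDR 0.0255).

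The E11.5 libraries contain mesonephros by design, and the 10 mesonephric markers summed to 364 to 414 CPM in XX controls, 235 to 392 in XY controls, 300.1 to 339.8 in XX KO and 252 to 264 in XY KO. Wnt4 was also highest in XX controls and low in XY KO. XY control replicate 2 had the highest sum of its group (392 CPM) and its highest Wnt4 (215 CPM), as did XX control replicate 2 (414 and 244 CPM). In both KO groups the order was the opposite. XX KO replicate 3 and XY KO replicate 3 had the lowest sums of their groups (300.1 and 252 CPM) but the highest Wnt4 (213 and 145 CPM). Pax8 was lower in XY KO than XY control (-0.67 ± 0.19, FDR 0.0332), where 12.7% of all tested genes were called. Emx1, Lhx1, Pax2 and Pax8 were lower in XY KO than XX control, where 9.09% were called. Macrophage markers (8 genes) summed to 59.8 to 83.4 CPM in XX KO and 62.8 to 92.4 in XY KO, below 111 to 122 and 103 to 136 in the controls, and Lgr5 was likewise lower in the KO libraries. The 6 fetal Leydig markers summed to 13.5 to 18.3 CPM in XX KO and 13.4 to 18.1 in XY KO, against 22.9 to 31.2 in XX and 25.5 to 32.2 in XY controls, and 3 of the 6 were tested. The 10 Sertoli markers summed to 135 to 298 CPM in XY controls, 53.7 to 61.6 in XY KO, 44.4 to 63.9 in XX controls and 41.5 to 57.8 in XX KO. The 8 pre-granulosa markers summed to 351 to 490.1 CPM in XX controls, 216 to 297 in XX KO, 227 to 249 in XY controls and 196 to 210.3 in XY KO. The part of these cell types in the results at E11.5 was not tested.

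Compared between genes, per kilobase of exon, the order at E12.5 in XX controls was Ctnnb1, Wnt4, Rspo1, Axin2, Nkd1, Sp5, Lef1, Znrf3, Lgr5 and Rnf43. Ctnnb1 stood at 239 ± 3.84 CPM per kb (mean ± SD, n = 3), Wnt4 at 64.1 ± 16.2, Rspo1 at 43.99 ± 4.75 and Rnf43 at 2.65 ± 0.498 CPM per kb. Neighbours in this order whose means lay within the larger of their SDs were Axin2 (21.6 ± 2.098) with Nkd1 (18.97 ± 3.43), and Sp5 (12.47 ± 3.39) with Lef1 (10.6 ± 1.31). In XY controls Wnt4 (11.6 ± 3.73 CPM per kb) and Rspo1 (11.8 ± 1.27) were level. In XY KO Ctnnb1 stood at 258 ± 4.52, Wnt4 at 51.9 ± 6.67 and Rspo1 at 45.6 ± 6.62 CPM per kb.

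The genes whose log2 CPM followed Wnt4 most closely over the 12 E12.5 libraries were Pik3ip1 (Pearson's r 0.991), Ndrg1 (0.983), Gas6 (0.982), Tkt (0.980) and Scmh1 (0.979). Over the 9 libraries without the XY controls, which stand apart, these fell to between 0.815 for Scmh1 and 0.956 for Pik3ip1. For Rspo1 they were Prkcd (0.981), Ccdc40 (0.981), Tkt (0.980), Lgr6 (0.979) and Lypd6b (0.977), with 0.721 to 0.838 over the 9 libraries. Wnt4 and Rspo1 had an r of 0.969 with each other over 12 libraries and 0.796 over 9. These are the highest of many coefficients over few libraries that share their genotypes, and are given as a description.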

How the data were processed

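Gene counts of 24 bulk RNA-seq libraries, 3 in each of 8 groups, were used as deposited. Per the study's methods, the authors mapped paired-end reads to mm10 and made the counts with the align and featureCounts functions of Subread, without further normalization. The annotation and the strand setting are not given in the sources used here. 2 further tables, of another mutant and with 12 columns of per-sample values, were not used. A gene was tested in a stage when 2 or more of its 12 libraries reached 1 CPM. Each stage was fitted in 1 model of 4 genotypes with TMM scaling and the quasi-likelihood test of edgeR 4.0.16 (R 4.3.3), 5 pairwise contrasts and the interaction of sex and genotype, with Benjamini-Hochberg adjustment over all tested genes. The script was tested on simulated data. Nothing says that replicates were separate in more than the embryos pooled, so p-values measure the spread between these libraries. Intervals are 95% intervals from the fit.

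The 10 genes, the pathway lists and the marker lists were chosen with earlier results of these data known. Results of 1 marker gene are not reported here. Of the other pathway genes, up to 3 called genes with the largest change per role list and comparison were to be named. Wnt5a, Sfrp1, Dkk1, Notum, Cd44, Nkd2, Tle2, Tle4 and Wnt6, and the full lists of called genes, were named after their values were seen. Alternatives were other scalings, filters and model forms, DESeq2 1.42.0, the replicate number as a block and leaving out each library. Transcript 3′ UTRs were taken from a GRCm38 annotation, and promoters and microRNAs from RefSeq.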

Additional observations from a re-analysis of the deposited data

Results flagged for a closer look

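The deletion moved 7 of the 10 genes differently in XY and XX gonads at E12.5, as tested by the interaction of sex and genotype. That test (edgeR, FDR over all tested genes) called 12.9% of all tested genes, and it too uses the XY control libraries. The log2 differences, XY effect minus XX effect, were 1.72 for Wnt4 (FDR 0.0036), 1.44 for Rspo1 (0.00097), 1.15 for Lef1 (0.0027) and 0.97 for Axin2 (0.00377). They were 2.12 for Rnf43 (FDR 0.0013), 1.03 for Nkd1 (0.0114) and 1.64 for Sp5 (0.00459). Each of the 7 had a positive effect in XY, and in XX gonads the fitted effect of Lef1 was negative. At E11.5 no gene of the 10 passed this test with edgeR, and Sp5 had an unadjusted p under 0.05.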

How the results depend on the processing

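Of 2378 fitted values of the 10 genes under the alternatives, 2304 stayed on their side of the threshold, 46 lost and 28 gained a call. No called direction turned, while 37 of the values called in neither fit changed sign. At E12.5 the 7 calls between the controls, the 7 between XY KO and XY control and the 7 of the interaction stayed at 7 or 8 genes with each library left out. Leaving out 1 library gave 0 to 4 calls between XX KO and XX control (1 with all libraries), 0 to 4 between XX KO and XY KO (0) and 0 to 1 between XY KO and XX control (1). At E11.5 it gave 0 to 3 calls between the controls (1), 1 to 2 between XY KO and XY control (2), 0 to 1 between XX KO and XX control (1), 0 to 1 between XX KO and XY KO (0) and 2 to 4 between XY KO and XX control (4). At E11.5, XY KO against XY control had 1 call with no filter on low counts and 1 with only the libraries compared. XX KO against XX control had 0 calls with only the libraries compared, 0 with the edgeR 4 form of the test and 2 with DESeq2, and XX KO against XY KO had 2 with DESeq2. XY KO against XX control had 3 to 6 over these alternatives. At E12.5, DESeq2 gave 2 calls for XX KO against XX control, 1 for XX KO against XY KO and 2 for XY KO against XX control. The causes were not tested.

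With the replicate number as a block, XX KO against XX control at E11.5 had 0 calls and XY KO against XX control 3. The other counts of the 10 genes under the block were as without it. Same-numbered libraries of different groups had correlations of -0.20 to 0.35 at E11.5 (7 of 18 pairs over 0.1) and -0.38 to 0.29 at E12.5 (5 of 18), so the numbers did not pair the libraries. Counts of the other pathway genes were recomputed as an alternative chosen after seeing the data: at E12.5 they were 24 to 31 between the controls and 20 to 32 between XY KO and XY control over all alternatives.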
